A study of Schizosaccharomyces pombe with 40 samples.

Results

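Nitrogen starvation was followed in the wt strain by comparing nitrogen-starved cells (-N) with vegetative cells (V). The comparison used 4 of the 40 poly(A)+ RNA libraries of the series, chosen by their labels: wt -N replicates 1 and 2, and wt V replicates 1 and 2. All cells were Schizosaccharomyces pombe (fission yeast), haploid and h-, and carried leu1-32, a leucine auxotrophy, and pat1-L95G::kanR, an allele of the Pat1 kinase that an ATP analogue inhibits. The -N cells had spent 15 to 16 h, overnight, in minimal medium (EMM) without nitrogen, and the V cells grew in EMM. No inhibitor had been added to either group. The other libraries came from the same strain 1 to 8 h after the Pat1 inhibitor 3-MB-PP1, leucine and NH4Cl were added, and from the snR107kloopmut strain (kloopmut), whose snR107 snoRNA has mutated bases, at the same 10 stages. The study used starvation to collect cells in G1 before meiosis, and the V and -N groups differ in medium, growth phase and cell cycle stage at once, which cannot be told apart here. Whether the starvation medium held leucine is not given in the sources used here. Each group had n = 2 independent cultures, so p-values rest on the spread of pairs of libraries.

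The 4 libraries held 24818926 to 32153376 counts, which puts the floor of 3 counts between 0.0933 and 0.121 CPM, the count scaled to library size. Levels below are RPKM, reads per kilobase of feature scaled for depth, on library sizes scaled by TMM. Differences are log2 values, -N minus V, with the standard error (SE) of the fit, and adjusted p-values are from edgeR's quasi-likelihood test with Benjamini-Hochberg adjustment over the 12019 features tested. The wt V libraries stood further apart than the wt -N libraries. Over 4997 protein-coding features, the SD of the log2 difference between replicates 1 and 2 was 0.22 in -N and 0.47 in V, and 17 features in -N against 188 in V were over 1 apart. V replicate 1 was the more distant of the pair from the kloopmut V libraries, with an SD of 0.48 against 0.31 for V replicate 2. Where leaving out a V library ended a call of a gene described below, or changed a list count by over 1.5 times, the value without it is given.

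The counts did not separate the strands. Of 310 protein-coding features that lie wholly inside a lncRNA feature on the other strand, 295 had a partner with at least 0.9 times their own count, and the lowest ratio was 0.834. A level of a feature that another one overlaps therefore includes reads of both. This holds, among others, for the antisense lncRNA features that cover mfm3, ste6, nmt1 and rpl801. Their levels moved with those genes, and their part in each result was not tested. The h- label was checked on mating type genes. The M cell genes had medians of 443 and 450 RPKM in -N cells. Among them, mfm1 was at 37702 and 41154 RPKM and mat1-Mc at 2.85 and 4.63 RPKM. The map2 gene, which encodes the P-factor of the opposite mating type, was at 0.157 and 0.0886 RPKM in -N and 0.774 and 1.28 RPKM in V cells. The 4 P cell genes tested, map2 included, had medians of 13.5 and 13.3 RPKM in -N and 12.3 and 16.5 RPKM in V. The P cell genes mat1-Pc, mat1-Pm, mat2-Pc and mat2-Pi were not found among the features. The check thus rests on the M cell genes and map2.

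Fission yeast cells that run out of nitrogen stop dividing in G1. With a partner of the other mating type they mate, and without one they enter quiescence. Target of rapamycin complexes, the cAMP pathway and the stress-activated MAP kinase pathway carry the signal, and the HMG-box factor Ste11 turns on mating type, pheromone and early meiotic genes, among them mei2. GATA-type factors such as Gaf1 act on genes for the uptake of nitrogen sources, and Atf1-Pcr1 acts on stress genes through a CRE site.

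In the fit of all 40 libraries, most features differed between -N and V. In wt, 6680 of 12019 features (55.6%) differed at an adjusted p below 0.05, of which 3493 were higher (29.1% of those tested) and 3187 lower (26.5%) in -N. In bulk RNA, a change in the share of cells of a kind and a change of RNA per cell cannot be told apart. Among protein-coding features, 1624 of 5075 (32%) were higher and 1556 (30.7%) lower, and these shares are the background for every gene list below. A difference over 1 in size was called for 2897 features (24.1%), including 508 protein-coding features in each direction. Both -N values lay above both V values, or both below, for 8614 features (71.7%). The split of calls depended on the scaling: with total counts in place of TMM, 72.9% of the calls were higher in -N against 52.3% with TMM, and the median of all features moved up by 0.31. The fit of the 4 libraries alone called fewer, 3865 of the 11570 features it tested, and 3844 of these calls were among the 6680.

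**Figure D1:**
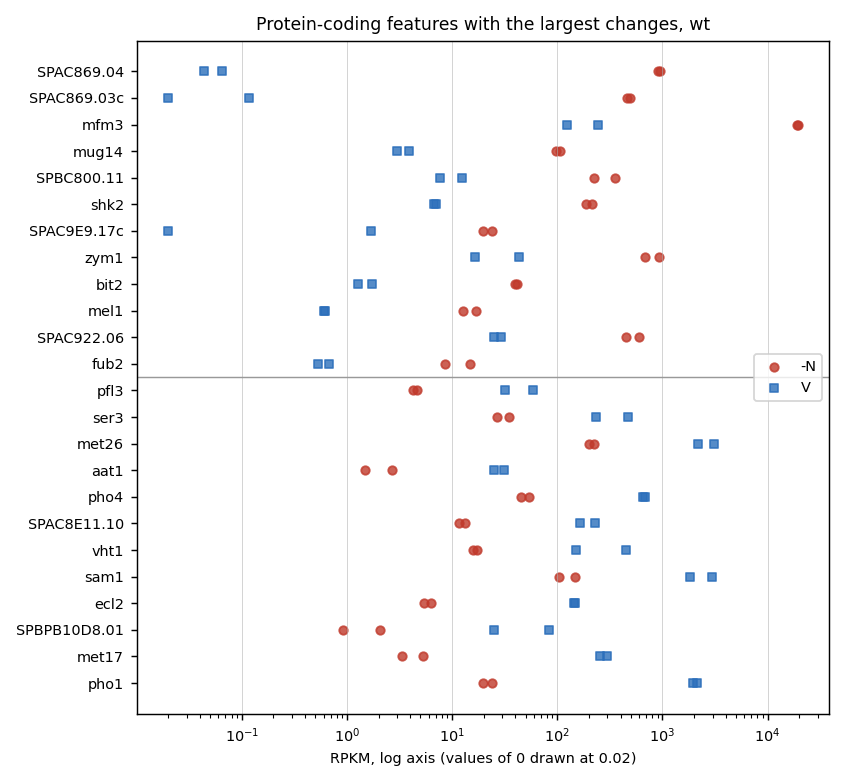
RPKM on a log axis of the 12 protein-coding features with the largest rises (top) and the 12 with the largest falls (bottom) in wt; circles are the 2 -N libraries and squares the 2 V libraries, and a value of 0 is drawn at 0.02. The groups do not overlap in any row, which the choice of the rows required, and SPAC869.04 and SPAC869.03c had V levels near the floor.

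Among protein-coding features, the largest rises were in a pair of neighbouring genes near the right end of chromosome I. SPAC869.04, annotated as formamidase-like (chromosome I, 5511137 to 5512385, minus strand), was at 911 and 942 RPKM in -N cells, against 0.0438 and 0.0654 RPKM in V cells. The V libraries held 2 reads each of this gene, and the ratio of levels was 17648 with a 95% counting interval of 6892 to 64771. SPAC869.03c, annotated as a urea transporter (chromosome I, 5512757 to 5514865, plus strand), was at 457 and 487 RPKM in -N cells and at 0 and 0.116 RPKM in V cells, where 6 reads were counted in all. Of SPAC869.04, 85.3%, and of SPAC869.03c, 87.1% is shared with lncRNA features on the other strand, which were also high in -N and at or near 0 in V: SPNCRNA.4487, over SPAC869.04, was at 849 and 850 RPKM in -N and 0 in both V libraries. Formamidases release ammonium from formamide and urea is a nitrogen source, so both gene names concern nitrogen supply. The pair is transcribed away from a shared upstream stretch that holds 1 GATA site. It is shown for both genes in their own direction because it lies between the protein-coding features with the largest rises, with the letters GATAAG, or their complement CTTATC, in capitals (chromosome I, 5512619 to 5512648, build ASM294v3):
SPAC869.04: atcaatattagaGATAAGtttaaataatat
SPAC869.03c: atattatttaaaCTTATCtctaatattgat

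Genes around this pair moved as well. Within 15 kb, 9 protein-coding features were tested, the pair included, of which 8 were higher and 1, sul2, was lower (log2 difference -1.89, SE 0.16, adjusted p 1.47e-10). Those with higher levels included yhb1 (log2 difference 1.19, SE 0.20, adjusted p 1.24e-05), a flavohemoglobin that detoxifies nitric oxide, and mel1, a melibiase, which was at 16.9 and 12.6 RPKM in -N cells and 0.601 and 0.618 RPKM in V cells. Across the genome, 66 of 155 protein-coding features within 100 kb of a chromosome end were higher (42.6%) and 29 were lower (18.7%), whereas elsewhere 31.7% were higher and 31% lower. Of such features, 26 of 51 were higher and 4 lower on chromosome I, 17 of 40 higher and 9 lower on chromosome II, and 23 of 64 higher and 16 lower on chromosome III.

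Further large rises fell on genes of several kinds. SPBC800.11, an inosine-uridine preferring nucleoside hydrolase, was at 222 and 353 RPKM in -N cells, against 7.66 and 12.4 RPKM in V cells (log2 difference 4.85, SE 0.25). The metallothionein gene zym1, whose product binds zinc, was at 937 and 681 RPKM in -N and at 43 and 16.6 RPKM in V cells. SPAC922.06, annotated as a 3-oxoacyl-[acyl-carrier-protein] reductase, was at 452 and 598 RPKM in -N and at 24.8 and 29.4 RPKM in V cells. No feature on the other strand shared bases with these 3 genes. The bit2 gene, for an HbrB family protein of TOR signalling, reached 41.8 and 39.5 RPKM in -N, against 1.74 and 1.28 RPKM in V. Other members of this set were mug14 (adducin), fub2 (PI31 proteasome regulator) and SPAC9E9.17c (uncharacterized), with log2 differences of 4.91, 4.26 and 4.82.

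Transport of nitrogen sources was the next group. Of 14 genes tested, 8 were higher and 3 lower in -N, with a median log2 difference of 0.52 against 0.03 for all features. The amino acid permease gene isp5 was at 759 and 1040 RPKM in -N cells and 89.7 and 145 RPKM in V cells (log2 difference 2.94, SE 0.21, adjusted p 1.52e-12). For per1, another amino acid permease gene, the levels were 232 and 282 RPKM in -N and 53.2 and 44 RPKM in V. The oligopeptide transporter gene isp4 was at 854 and 1022 RPKM in -N against 284 and 199 RPKM in V, and isp7, a 2-oxoglutarate-dependent oxygenase gene that acts on amino acid uptake, was at 362 and 428 RPKM in -N against 100 and 104 RPKM in V. For each of these 4 genes both -N values lay above both V values. Of isp4, 96.1% is shared with SPNCRNA.5238 on the other strand, and of per1, 44.9% with SPNCRNA.3670. Both lncRNA features were also higher in -N, while no other feature overlaps isp5. The proline permease gene put4 rose by 1.47 (SE 0.22), and the uracil permease gene fur4 by 0.96 (SE 0.14).

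Not all transporters of nitrogen compounds followed. The cationic amino acid transporter gene cat1 was lower, at 8.41 and 9.5 RPKM in -N and 20.1 and 32.4 RPKM in V cells (log2 difference -1.55, SE 0.23), and so was aat1, an amino acid permease gene, at 1.49 and 2.66 RPKM in -N against 24.9 and 31.1 RPKM in V. Of the ammonium transporter genes, amt2 fell by 0.97 (SE 0.14, adjusted p 1.14e-06), while amt1 and amt3 gave log2 differences of 0.00 and 0.34 and did not pass the test.

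The letters GATAAG, on either strand, were present in the 300 bases before 9 of these 14 genes (64.3%), against 600 of 5075 protein-coding genes (11.8%). Among all protein-coding genes the share was 13.6% of those called higher, 11.6% of those called lower and 10.5% of those not called, and among those that moved by over 2 on the log2 scale it was 21.3% of the higher and 20% of the lower. Shown are 30 bases around the match nearest the gene for 3 of the permease genes with large rises and for isp7, in the direction of the gene, with the match in capitals (build ASM294v3; isp5 chromosome I, 5466617 to 5466646; per1 chromosome I, 3749327 to 3749356; put4 chromosome I, 5493024 to 5493053; isp7 chromosome I, 4183068 to 4183097):
isp5: gcaaaaattgttCTTATCttgtaaattgaa
per1: cgtttttaatttCTTATCcgtcctcttatt
put4: tccggaatactgCTTATCgttggccgccgc
isp7: atatagagacgaGATAAGgacaggttgacc
The match lay 128, 102, 128 and 66 bases before the annotated start of isp5, per1, put4 and isp7. The 2 ammonium transporter genes that did not pass the test, amt1 and amt3, held the letters as well. So did meu22 of the list, with a log2 difference of -0.44, and aat1, outside the list, with -3.76. The window of isp4, which rose, did not hold them.

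The mating genes of M cells rose as a block. All 10 genes tested were higher in -N, the median log2 difference was 3.40, and all 10 were also called without V replicate 1 and without V replicate 2. In the fit of the 4 libraries alone 9 of the 10 were called higher, and in kloopmut 8 were. The genes for the M-factor pheromone were among the most abundant of the -N transcriptome. For mfm1, the -N libraries had 37702 and 41154 RPKM, against 4241 and 1752 RPKM in V (log2 difference 3.72, SE 0.33, adjusted p 2.87e-10). For mfm3, they had 19461 and 19191 RPKM, against 244 and 124 RPKM in V (log2 difference 6.71, SE 0.59, adjusted p 1.6e-10). For mfm2, they had 3915 and 3895 RPKM, against 1654 and 785 RPKM in V (log2 difference 1.68, SE 0.38, adjusted p 0.000459). The 3 genes encode the same pheromone, and in V cells mfm1 was the highest of the 3 and mfm3 the lowest, whereas in -N cells mfm3 stood between mfm1 and mfm2.

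The receptor and processing genes of the same program followed. The gene of the P-factor receptor, mam2 (chromosome I, 4780688 to 4781922), was at 1274 and 1256 RPKM in -N and 139 and 161 RPKM in V cells (log2 difference 3.08, SE 0.15, adjusted p 6.37e-16). The gene sxa2, whose carboxypeptidase degrades P-factor, was at 313 and 314 RPKM in -N, against 26.6 and 14.3 RPKM in V. For mam1, the M-factor exporter gene, the levels were 217 and 202 RPKM in -N and 54.9 and 62.3 RPKM in V, and mam3, an agglutinin gene, had 572 and 587 RPKM in -N and 76.8 and 77.8 RPKM in V. The mating type gene mat1-Mc was low throughout, at 59 and 85 counts in -N and 0 and 3 counts in V (ratio of levels 41, 95% counting interval 13.7 to 201), and it shares its sequence with the silent copy mat3-Mc, so that reads of the copies cannot be told apart. Of the 4 P cell genes tested, map2 fell (log2 difference -2.96, SE 0.90, adjusted p 0.00689, and 0.057 without -N replicate 2) and map3, map4 and sxa1 did not pass the test (log2 differences of -0.08, -0.15 and -0.00), and 2 of the 4 were called lower without V replicate 1.

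Pheromone signalling genes and Ste11 itself rose less. Of 19 genes of this list, 13 were higher and 3 lower, with a median of 0.73, and 10 were higher without V replicate 1. The ste11 gene (chromosome II, 3983376 to 3987400) was at 68.2 and 101 RPKM in -N cells and 43.4 and 58.1 RPKM in V cells (log2 difference 0.73, SE 0.21, adjusted p 0.00485). The groups did not overlap, but the call was lost without V replicate 1 (0.54, adjusted p 0.0875) and without -N replicate 2 (0.40, adjusted p 0.187). The MAP kinase gene spk1 was at 649 and 762 RPKM in -N against 111 and 128 RPKM in V, but 77.3% of it is shared with hem4 on the other strand, which rose by 2.42 (SE 0.16). The Ras exchange factor gene ste6 was at 211 and 210 RPKM in -N and 40.7 and 35.1 RPKM in V. The G protein gene gpa1, which acts below the pheromone receptors, was at 177 and 194 RPKM in -N, against 55.8 and 58.7 RPKM in V, and map1, for a MADS-box factor of P cell genes, was at 37.1 and 38.8 RPKM in -N against 8.44 and 10.3 RPKM in V. The PAK-like kinase gene shk2, from the set of largest rises, was at 213 and 187 RPKM in -N and 7.08 and 6.72 RPKM in V. Of shk2, 98.9% is shared with SPNCRNA.634 on the other strand, at 149 and 134 RPKM in -N and 8.55 and 4.44 RPKM in V. Of map1, 63.9% is shared with SPNCRNA.4385 on the other strand, which was also higher in -N. The 3 lower genes were byr2, shk1 and gap1, a MAP kinase kinase kinase, a second PAK-like kinase and a Ras GTPase-activating protein, with log2 differences of -0.72, -0.60 and -0.39. The call of shk1 was lost without -N replicate 1 (-0.33) and that of gap1 without V replicate 2 (-0.25).

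The TR box, the site that Ste11 binds, was searched as the letters TTCTTTGTT on both strands. It was present before 5 of the 10 M cell genes and 8 of the 19 pheromone response genes (50% and 42.1%), against 102 of 5075 protein-coding genes (2.01%). Of the 5 M cell matches, those of mat1-Mc and mat1-Mi are the same site between the genes, and that of mat3-Mc is a copy of it. Among all protein-coding genes, 2.83% of those called higher, 1.67% of those called lower and 1.58% of those not called held the letters. Of protein-coding genes higher by over 2 on the log2 scale, 12 of 127 (9.45%) held it, against 1 of 85 (1.18%) of those lower by over 2. The windows of 6 genes central to the mating program, or with large rises, are shown in the direction of the gene, with the match in capitals; AACAAAGAA is the complement (build ASM294v3; mfm1 chromosome I, 4916926 to 4916955; mfm3 chromosome II, 700190 to 700219; ste11 chromosome II, 3983239 to 3983268; ste6 chromosome III, 1765896 to 1765925; mei2 chromosome I, 4515144 to 4515173; shk2 chromosome I, 273069 to 273098):
mfm1: gggtccgaccAACAAAGAAgtctcagtttt
mfm3: aggcccaaccAACAAAGAAgtctcagattt
ste11: aaagttgaatTTCTTTGTTtgattttcatt
ste6: attgttagtaAACAAAGAAattcccaaaat
mei2: attttaaagtTTCTTTGTTttacaaaccct
shk2: taaatggggtTTCTTTGTTtatacatttga
The matches lay 79 bases before mfm1, 164 before mfm3 and 138 before mei2, whose window held 2, and spk1 and rgs1 held 3 each. Of these, rgs1 did not pass the test (log2 difference 0.24).

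**Figure D2:**
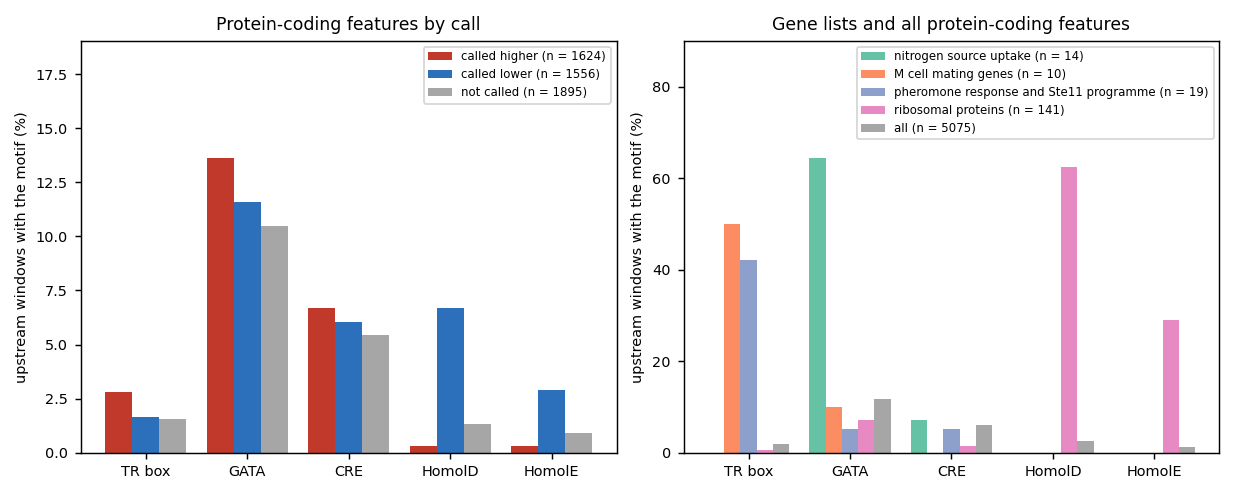
Share of 300-base upstream windows that hold each motif, in percent; left, protein-coding features called higher, called lower and not called in wt -N against V; right, 4 gene lists and all protein-coding features. GATA stood at 64.3% of the nitrogen source genes, the TR box at 50% of the M cell genes, and HomolD at 62.4% of the ribosomal protein genes.

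Mei2 and its partners are the switch to meiosis that Pat1 holds back. The mei2 gene (chromosome I, 4510983 to 4515025), for the RNA-binding protein that starts meiosis, was at 293 and 401 RPKM in -N and 65.7 and 87 RPKM in V cells (log2 difference 2.19, SE 0.19, adjusted p 1.69e-10). Of mei2, 22.1% is shared with SPNCRNA.4031 on the other strand, and smaller parts with SPNCRNA.4030 and SPNCRNA.4032, which were all higher in -N. The pat1 gene, which encodes the kinase that inhibits Mei2, was higher too, at 30.5 and 46.1 RPKM in -N and 16 and 21.4 RPKM in V (log2 difference 1.04, SE 0.20). Of pat1, 100% is shared with SPNCRNA.5298 on the other strand, at 24.5 and 35.7 RPKM in -N and 12.5 and 18.3 RPKM in V. The mmi1 gene, for the YTH protein that removes meiotic transcripts in vegetative cells, was at 14.5 and 19.5 RPKM in -N and 23.5 and 20.2 RPKM in V, and did not pass the test (log2 difference -0.36, SE 0.16, adjusted p 0.0537). Of the 2 RNAs that bind these proteins, sme2, which makes meiRNA, was low at 1.49 and 2.25 RPKM in -N and 0.749 and 1.16 RPKM in V (log2 difference 1.00, adjusted p 0.00817), and mamRNA, the host of snR107, was at 100.2 and 90 RPKM in -N and 80.3 and 47.1 RPKM in V (log2 difference 0.57, adjusted p 0.00437). The call of sme2 was lost without V replicate 1 (0.68) or -N replicate 2 (0.66), and that of mamRNA without V replicate 2 (0.24) or -N replicate 1 (0.46). The erh1 gene, for a partner of Mmi1, rose by 0.69 (SE 0.14). SPNCRNA.3814 on the other strand covers 78.6% of erh1 and was also higher in -N.

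Meiotic transcripts that Mmi1 removes stayed low. Of 19 targets tested, 9 were higher and 2 lower in -N, with a median of 0.88 (0.48 without V replicate 2). The meiotic transcription factor gene mei4 was at 2.7 and 2.47 RPKM in -N and 0.925 and 1.14 RPKM in V cells, and mcp7, for a protein of meiotic recombination, was at 15.3 and 13.8 RPKM in -N and 3.5 and 3.76 RPKM in V. Of mcp7, 39.8% is shared with ubp8 on the other strand, at 24.4 and 23.5 RPKM in -N and 9.78 and 10.3 RPKM in V. The cohesin gene rec8 was at 1.23 and 0.853 RPKM in -N and 0.279 and 0.934 RPKM in V and did not pass the test (adjusted p 0.058). The mug45 gene was called lower (log2 difference -2.43), with 2.63 and 2.72 RPKM in -N, but its V libraries had 24.3 and 4.32 RPKM, and without V replicate 1 the log2 difference was -0.69. Among spore genes, 5 of 12 were higher and 2 lower (7 and 1 without V replicate 2), and isp3, for a protein of the spore surface, was at 18.1 and 8.71 RPKM in -N and 0.465 and 3.71 RPKM in V (log2 difference 2.80, 1.86 without V replicate 1 and 4.85 without V replicate 2). The septin genes spn6 and spn7, of the meiotic septin ring, rose by 1.54 (SE 0.18) and 1.14 (SE 0.17), while bgs2, the spore wall glucan synthase gene, did not pass the test (log2 difference 0.25). Of spn6, 97.0% is shared with dcr1 on the other strand, at 13.6 and 13.1 RPKM in -N and 6.21 and 7.44 RPKM in V. Of spn7, 84.5% is shared with SPNCRNA.1588 on the other strand, which was also higher in -N.

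**Figure D3:**
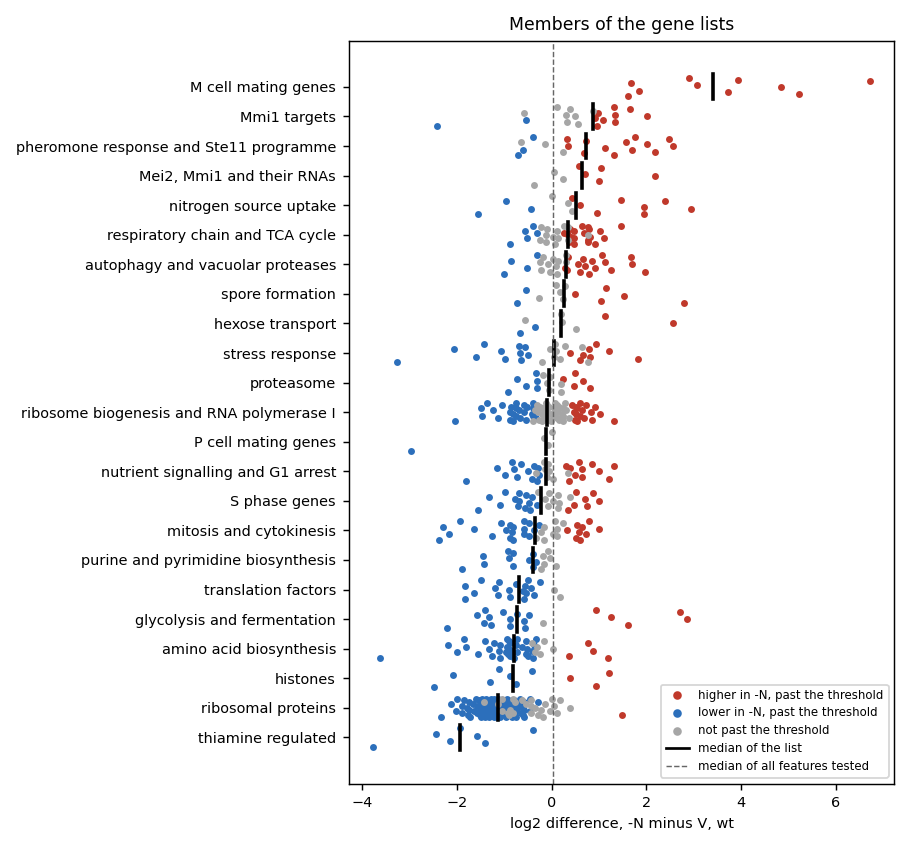
Log2 difference, -N minus V, of each member of 23 gene lists in wt; red points are past the threshold and higher in -N, blue points past it and lower, gray points not past it, and black bars are list medians. Medians ran from 3.40 for M cell mating genes at the top to -1.93 for thiamine regulated genes at the bottom, and the dashed line marks the median of all features, 0.03.

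Autophagy breaks down cell contents in the vacuole and supplies amino acids during starvation. Of 31 genes of autophagy and vacuolar proteases, 16 were higher and 4 lower, with a median of 0.30. In the fit of features under 10% overlap, 5 of these genes were tested, of which 2 were higher and 1 lower. The largest rise was that of atg43, the mitophagy receptor gene, at 66.6 and 75.6 RPKM in -N and 19.1 and 17 RPKM in V cells (log2 difference 1.98, SE 0.10, adjusted p 3.86e-15). Of atg43, 44.9% is shared with the coding gene uga1 on the other strand, at 28 and 40.5 RPKM in -N and 14.7 and 10.9 RPKM in V. The genes atg12 and atg101, for a ubiquitin-like modifier and a subunit of the initiating complex, rose by 1.69 (SE 0.22) and 1.67 (SE 0.17), and atg22, for an exporter of amino acids from the vacuole, by 1.25 (SE 0.12). Features on the other strand cover 93.8% of atg12 and 100% of atg101. The vacuolar protease gene isp6 did not pass the test, with 113 and 125 RPKM in -N and 102 and 168 RPKM in V. The atg8 gene, for the modifier of autophagosome membranes, was called lower, with 36.5 and 48.2 RPKM in -N and 123 and 45.4 RPKM in V. Its groups overlap, and without V replicate 1 the log2 difference was -0.10 (adjusted p 0.591).

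Of 32 genes of nutrient signalling, 11 were higher and 13 lower, shares of the same order as the background. Their median of -0.12 turned to 0.20 with total counts in place of TMM. The G protein gene gpa2, of glucose sensing, was at 8.94 and 10.2 RPKM in -N and 38.5 and 28.5 RPKM in V cells. The cAMP phosphodiesterase gene cgs2 was also lower, at 8.21 and 10.1 RPKM in -N against 20.3 and 20.4 RPKM in V. Higher were the transcription factor genes rsv2, at 65.4 and 81.7 RPKM in -N against 25 and 34 RPKM in V, and fil1, a GATA factor gene, at 219 and 340 RPKM in -N against 96.2 and 144 RPKM in V. The S6 kinase gene psk1 rose by 0.99 (SE 0.10). The G1 arrest gene rum1, for an inhibitor of the Cdc2 kinase, was at 56.7 and 70.9 RPKM in -N and 56.9 and 40 RPKM in V, and its call (log2 difference 0.40, adjusted p 0.0151) came with groups that overlap. It was lost without V replicate 2 (0.17) and without -N replicate 2 (0.20). Its partner srw1, also known as ste9, an activator of cyclin degradation in G1, did not pass the test (log2 difference -0.06, adjusted p 0.709).

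The 12 largest falls among protein-coding genes included genes for phosphatases, methionine synthesis and transporters. The extracellular acid phosphatase gene pho1 (chromosome II, 4447506 to 4449053) was at 24.1 and 19.6 RPKM in -N cells, against 1940 and 2156 RPKM in V cells (log2 difference -6.55, SE 0.16, adjusted p 1.94e-22). Of pho1, 91.3% is shared with nc-pho1, a lncRNA feature on the same strand, so the level includes reads of both. The nc-pho1 feature was at 16.3 and 13.5 RPKM in -N and 1167.5 and 1304 RPKM in V. The homocysteine synthase gene met17 was at 3.37 and 5.24 RPKM in -N against 253 and 296 RPKM in V (log2 difference -6.00, SE 0.21, adjusted p 4.42e-19). Around it in the methionine cycle, met26, for the enzyme that methylates homocysteine, was at 224 and 202 RPKM in -N against 2164 and 3109 RPKM in V, and sam1, for S-adenosylmethionine synthetase, at 146 and 103 RPKM in -N against 1843 and 2975 RPKM in V. A cysteine transporter gene, SPBPB10D8.01, had 2.07 and 0.915 RPKM in -N and 84.3 and 25.3 RPKM in V. The serine pathway gene ser3, for phosphoglycerate dehydrogenase, was at 26.9 and 35 RPKM in -N, against 232 and 470 RPKM in V. The ecl2 gene, of a family of small proteins tied to lifespan, was at 6.31 and 5.36 RPKM in -N and 147 and 145 RPKM in V, and vht1, the biotin transporter gene, at 17.3 and 16 RPKM in -N and 150 and 449 RPKM in V. The other two of the 12, beside pho4 and aat1, were SPAC8E11.10 and pfl3, with log2 differences of -3.97 and -3.36.

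Most genes of amino acid and nucleotide synthesis tested were lower. Of 45 genes of amino acid biosynthesis, 35 were lower and 4 higher (37 and 2 without V replicate 1, 29 and 4 without V replicate 2), with a median of -0.80, against a background of 30.7% lower. The gdh1 gene, for the NADP-dependent glutamate dehydrogenase that fixes ammonium, was at 85.5 and 84.7 RPKM in -N and 295 and 476 RPKM in V (log2 difference -2.18, SE 0.16, adjusted p 2.7e-12), and gln1, for glutamine synthetase, was at 65.8 and 102 RPKM in -N and 137 and 174 RPKM in V, with an adjusted p of 0.0554 without -N replicate 1. The branched chain gene ilv5 was at 300.4 and 337 RPKM in -N and 1008 and 1213 RPKM in V, and the lysine gene lys12 at 45.4 and 55.5 RPKM in -N and 177 and 226 RPKM in V. The 4 higher genes were arg7, arg12, arg11 and tyr1, of which 3 act in arginine synthesis, and arg7 was at 30.3 and 34.1 RPKM in -N and 10.4 and 17.8 RPKM in V. Without V replicate 1, the log2 differences of arg12 and arg11 were 0.30 and 0.22 and did not pass the test. Of 17 genes of purine and pyrimidine synthesis, 11 were lower by edgeR and 0 higher by edgeR, DESeq2 or limma-voom, also with 0 higher at an unadjusted p below 0.05, but 7 were lower and 1 higher with total counts in place of TMM. The purine genes ade10 and gua1, the second for IMP dehydrogenase, fell by 1.89 (SE 0.14) and 1.42 (SE 0.10), and the pyrimidine gene ura3 was at 60.6 and 63.2 RPKM in -N and 162 and 177 RPKM in V.

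Transcripts of ribosomal proteins were lower. Of 141 features with ribosomal protein symbols, 114 were lower and 1 was higher, with a median of -1.13, and 103 were lower and 1 higher without V replicate 1, and 109 and 2 without V replicate 2. The symbol rule also took in rpp1, rpp21 and rpp40, which the annotation names subunits of RNase P or RNase MRP; rpp21 was the 1 higher feature and the others were not called. For rpl801, the levels were 279 and 289 RPKM in -N and 1096 and 1757 RPKM in V cells (log2 difference -2.33, SE 0.20), and for rps001 they were 138 and 162 RPKM in -N and 505 and 711 RPKM in V (log2 difference -2.02, SE 0.15). The summed RPKM of the list was 57424 and 59382 in -N, against 119100 and 129680 in V. Of 20 translation factor genes, 18 were lower by edgeR and 0 higher by edgeR, DESeq2 or limma-voom, with 0 higher at an unadjusted p below 0.05, but 12 were lower and 2 higher with total counts in place of TMM. The elongation factor genes tef101 and tef102 fell by 1.83 (SE 0.18) and 1.82 (SE 0.17), whereas tef103, the most abundant of the 3 in both groups, fell by 0.75 (SE 0.13).

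Ribosome assembly genes did not move as one. Of 78 genes of ribosome biogenesis and RNA polymerase I, 26 were lower and 17 higher, shares of the same order as the background, and the median of -0.11 turned to 0.20 with total counts in place of TMM. The 4 with the largest changes were snoRNP and assembly genes: gar1 was at 71.3 and 83.9 RPKM in -N and 373 and 265 RPKM in V, and fib1, for fibrillarin, fell by 1.46 (SE 0.14). The other two, ppp1 and nop56, fell by 1.49 (SE 0.22) and 1.36 (SE 0.21).

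Ribosomal protein genes of fission yeast carry the HomolD box, here searched as CAGTCACA on both strands, and the HomolE box, searched as ACCCTACCC. HomolD was present before 88 of the 141 genes (62.4%) and HomolE before 41 (29.1%), against 2.64% and 1.32% of all protein-coding genes. HomolD was found before 104 of 1556 genes called lower (6.68%), 5 of 1624 called higher (0.308%) and 25 of 1895 not called (1.32%). These counts include the ribosomal protein list, which holds 88 of the 134 protein-coding genes with HomolD. The split without that list was not computed. The 4 ribosomal protein genes with the largest falls held it within 74 bases of their start, and sam1, from the set of largest falls, held it too (build ASM294v3; rpl801 chromosome I, 4251477 to 4251506; rpp203 chromosome I, 3869004 to 3869033; rps001 chromosome II, 2778838 to 2778867; rpl301 chromosome I, 1756025 to 1756054; sam1 chromosome II, 4163892 to 4163921). Capitals mark the match, and TGTGACTG is the complement:
rpl801: atgaccgaaaaCAGTCACAttttacaacaa
rpp203: tcttgaaacgtTGTGACTGtctttttcgta
rps001: ttgcaagaaggCAGTCACAgtttcaggtct
rpl301: cctaaaaagaaCAGTCACAatgtgttgaag
sam1: atcctgataagCAGTCACAactataatcag

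Glycolysis genes were mostly lower, with rises of some paralogs. Of 19 genes of glycolysis and fermentation, 13 were lower and 5 higher, with a median of -0.73. The glyceraldehyde-3-phosphate dehydrogenase gene tdh1 was at 937 and 867 RPKM in -N and 1331 and 3511 RPKM in V cells, while its paralog gpd3 was at 580 and 570 RPKM in -N against 75.6 and 101 RPKM in V (log2 differences of -1.42, SE 0.24, and 2.70, SE 0.19). Likewise the enolase gene eno101 fell by 1.29 and its paralog eno102 was higher, at 30.8 and 24 RPKM in -N against 4.11 and 3.36 RPKM in V, and the pyruvate decarboxylase gene pdc101 fell by 1.41 while pdc201 was at 23 and 18 RPKM in -N and 7.03 and 6.47 RPKM in V. The pgk1 gene, for phosphoglycerate kinase, had 488 and 325 RPKM in -N and 1160 and 2585 RPKM in V. The fbp1 gene, for the gluconeogenic fructose-1,6-bisphosphatase, rose by 1.25 (SE 0.15). V replicate 1 was below V replicate 2 in this list, by a median log2 difference of -0.60, and the list median was -1.03 without V replicate 1 and -0.40 without V replicate 2.

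Of 37 respiration genes, 19 were higher, 5 lower and 13 not called, with a median of 0.35 (16 higher and 3 lower without V replicate 2). In the fit of the 4 libraries alone 8 were higher and 2 lower, and in kloopmut 9 were higher and 8 lower, with a median of 0.08. The cytochrome oxidase subunit gene cox13 rose by 1.46 (SE 0.12), atp7 of the ATP synthase by 1.03 (SE 0.11) and qcr8 of complex III by 0.91 (SE 0.20). Against these, cyc1, for cytochrome c, was at 196 and 210 RPKM in -N and 367 and 380 RPKM in V cells. Of 8 hexose transporter genes, 2 were higher and 2 lower, shares of the same order as the background, with a median of 0.21. Without V replicate 1 the counts were 2 and 2 and the median was -0.21, and without V replicate 2 they were 4 and 0 and the median was 1.15.

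Of 28 stress genes, 8 were higher and 11 lower, shares of the same order as the background. Their median of 0.06 turned below 0 without V replicate 1, -N replicate 1 or -N replicate 2. Chaperone genes had the largest falls: ssa2 was at 226 and 197 RPKM in -N and 1901 and 2190 RPKM in V cells, hsp90 at 358 and 333 RPKM in -N and 1463 and 1433 RPKM in V, and sks2, a chaperone of the ribosome, at 407 and 436 RPKM in -N and 1236 and 1324 RPKM in V. Higher were hsp9, a small heat shock protein gene, at 2255 and 1624 RPKM in -N and 530 and 571 RPKM in V, ish1, at 59.2 and 69.1 RPKM in -N and 19.7 and 35.5 RPKM in V, and the catalase gene ctt1, at 81.3 and 67.3 RPKM in -N and 33.6 and 52 RPKM in V. The CRE site of Atf1-Pcr1, searched as TGACGT on both strands, was present before 8 of these 28 genes (28.6%), against 6.03% of all protein-coding genes, and before 6.71% of genes called higher, 6.04% of those called lower and 5.44% of those not called.

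The 7 thiamine regulated genes tested were all lower by edgeR, and 6 were called without V replicate 2, with a median of -1.93. The nmt1 and thi2 genes, for thiamine precursor synthesis, were at 1882 and 1850 RPKM and at 1432 and 1444 RPKM in -N, against 6280 and 7918 RPKM and 5036 and 7756 RPKM in V cells. The thiamine-repressible phosphatase gene pho4 was at 45.6 and 53.7 RPKM in -N and 686 and 659 RPKM in V (log2 difference -3.76, SE 0.11), and bsu1, for a vitamin B6 importer, fell by 2.45 (SE 0.13).

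Cell cycle genes moved in both directions. Of 38 genes of mitosis and cytokinesis, 20 were lower and 9 higher, but with total counts in place of TMM 12 were lower and 13 higher. Genes of the last step of division led the falls: the septum glucanase gene eng1 was at 7.13 and 5.22 RPKM in -N and 22.2 and 42.1 RPKM in V cells, and adg1 at 11.4 and 12.4 RPKM in -N and 33.6 and 82.9 RPKM in V. The slp1 gene, for an activator of the anaphase-promoting complex, was at 7.06 and 8.49 RPKM in -N and 30.3 and 39.8 RPKM in V. The polo kinase gene plo1 was higher, at 22.6 and 26.8 RPKM in -N and 14.3 and 10.3 RPKM in V. Of 30 S phase genes, 14 were lower and 7 higher by edgeR. The counts were 15 lower and 4 higher without V replicate 1, 11 and 9 without V replicate 2, and 8 and 13 with total counts, where their median of -0.22 turned to 0.10. The replicative helicase genes mcm4 and mcm2 fell by 1.54 (SE 0.15) and 1.32 (SE 0.14), and sld5, of the same helicase complex, rose by 1.01 (SE 0.14). Of sld5, 67.0% is shared with SPNCRNA.5883 on the other strand, at 101 and 90.7 RPKM in -N and 43 and 46.2 RPKM in V. Of mcm2, 57.6% is shared with SPNCRNA.5058 on the other strand, which was also lower in -N.

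Histone genes also split. Of 10 genes, 7 were lower and 3 higher (6 and 2 without V replicate 2). The H2B gene htb1 was at 222 and 222 RPKM in -N and 1632 and 866 RPKM in V cells, and the H3 gene hht1 at 152 and 155 RPKM in -N and 656 and 637 RPKM in V. A second H3 gene, hht2, was higher, at 1480 and 1445 RPKM in -N and 520 and 744 RPKM in V (log2 difference 1.21, SE 0.22, adjusted p 3.22e-05), as were hhf2 and hht3, by 0.93 and 0.39, the second with no call without V replicate 2 (0.25). In -N cells the level of hht2 was above that of hht1, while in V cells hht1 lay between the 2 values of hht2. The copies encode near-identical products, and how reads that fit several copies were counted is not given in the sources used here. Of 17 proteasome genes, 5 were higher and 6 lower (3 and 6 without V replicate 1, 5 and 4 without V replicate 2), shares of the same order as the background.

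The 10 protein-coding features with the highest -N levels were mfm1, mfm3, SPAC27E2.11c, mfm2, gpm1, fba1, tef103, tpi1, hsp9 and nmt1. SPAC27E2.11c, annotated as a Schizosaccharomyces specific protein, did not pass the test, with 3855 and 4648 RPKM in -N and 1036 and 7192 RPKM in V cells, so the V values lay on both sides of the -N values. The actin gene act1 was at 775 and 799.5 RPKM in -N and 989 and 1394 RPKM in V (log2 difference -0.60, SE 0.12, adjusted p 0.00018).

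Features that share under 10% of their bases with another one give the clearest view of non-coding RNA. Of 467 lncRNA features of this kind that were tested, 133 were higher and 56 lower, with a median of 0.66. The higher count was near the share over all features (29.1%), and the lower count was below its share (26.5%). Levels in this group were low, with medians of 1.85 and 1.71 RPKM in -N and 1.43 and 0.898 RPKM in V. SPNCRNA.4490 (chromosome I, 5514940 to 5515352), next to SPAC869.03c, had 211 and 258 counts in -N and none in V, so its level was at least 133-fold higher against a floor of 3 counts over the 2 V libraries. On chromosome III, SPNCRNA.6685 (49366 to 49718) and SPNCRNA.451 (49802 to 50142), which lie side by side on opposite strands, were at 52.7 and 66.4 RPKM and at 50.8 and 60.7 RPKM in -N, against 0 and 0.347 RPKM and 0 and 1.44 RPKM in V. Lower was SPNCRNA.1482, at 5.99 and 3.76 RPKM in -N and 50.4 and 45.4 RPKM in V, while the fall of SPNCRNA.3895 (14.8 and 15.6 RPKM in -N, 257 and 21.2 RPKM in V) was not called without V replicate 1 (log2 difference -0.49, adjusted p 0.364). Among the features of under 10% overlap, the largest fall was that of SPBC460.05, on the contig named chr_II_telomeric_gap, at 0.298 and 0.411 RPKM in -N and 54.7 and 36.7 RPKM in V (log2 difference -7.01, SE 0.62), but its type is not given in the annotation used here.

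**Figure D4:**
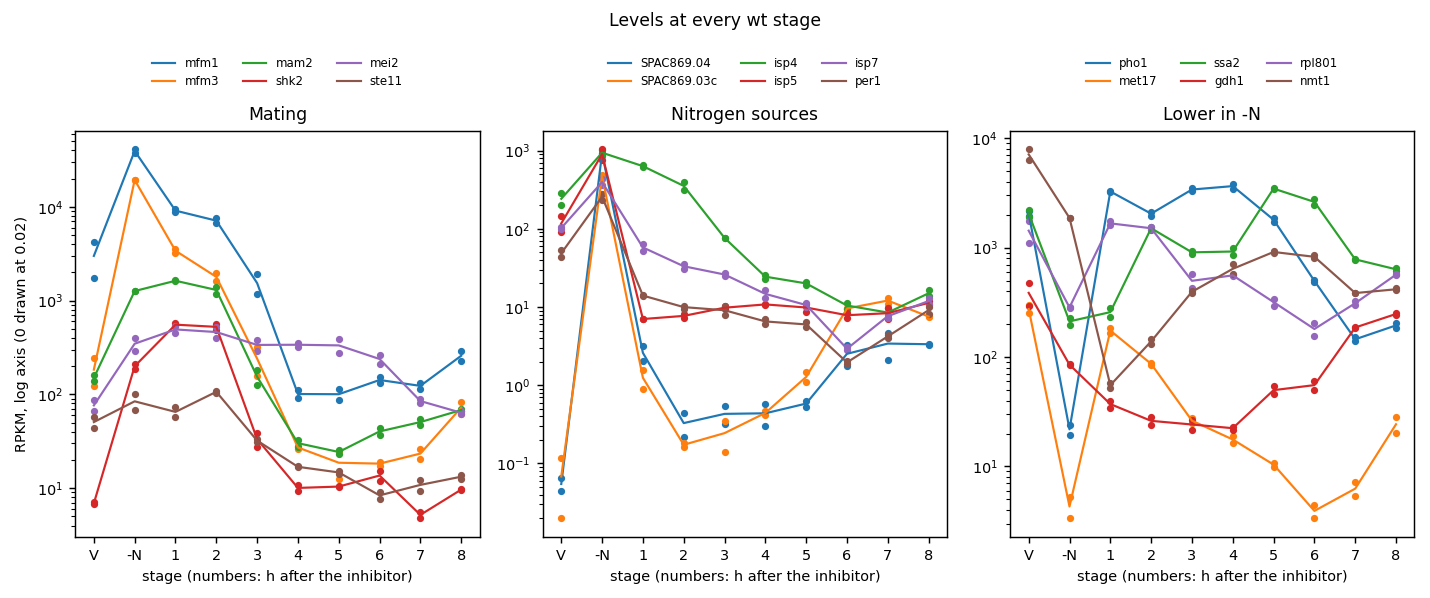
RPKM on a log axis at 10 wt stages, from V and -N to 8 h after the inhibitor, leucine and NH4Cl were added, for 6 mating genes, 6 genes of nitrogen sources and 6 genes lower in -N; points are the 2 libraries, lines their means, and 0 is drawn at 0.02. SPAC869.04 stood at a mean of 927 RPKM in -N and 2.59 RPKM at 1 h, while mei2 stayed between 238 and 493 RPKM from 1 to 6 h.

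Nitrogen source genes differed in their levels after starvation ended. The later stages are given as levels and were not tested here. The mean level of SPAC869.04 was 0.0546 RPKM in V, 927 RPKM in -N and 2.59 RPKM at 1 h after leucine, NH4Cl and the inhibitor were added together, whose effects cannot be told apart. The mean level of isp5 was 7.01 RPKM at 1 h and 7.69 RPKM at 2 h, below both V values, and per1 was at 14 and 9.96 RPKM at those times. The isp4 gene had 632 RPKM at 1 h and 353 RPKM at 2 h, above both V values, and 76.5 RPKM at 3 h. Mating genes differed in timing: mam2 was at 1628 RPKM at 1 h and 1299 RPKM at 2 h, against 154 RPKM at 3 h, and shk2 was at 554, 525 and 33.3 RPKM at these times. The mfm1 level was 9109 RPKM at 1 h and 101 RPKM at 4 h. Of the genes lower in -N, pho1 was at 3255 RPKM at 1 h and rpl801 at 1663 RPKM, within or above the range of their V values, while gdh1 was at 37.2 RPKM at 1 h and nmt1 at 55.3 RPKM, below their -N values. The metallothionein gene zym1 was at 14.3 RPKM at 1 h and 9565 RPKM at 6 h.

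The same contrast in kloopmut, from cultures that the wt comparison did not use, called 6748 features (56.1%). Of the 6680 wt calls, 5103 (76.4%) were called in kloopmut in the same direction and 15 in the opposite one. SPAC869.04 was at 568 and 510 RPKM in kloopmut -N cells and at 0 and 0.057 RPKM in kloopmut V cells, with a log2 difference of 14.02 in either strain. The log2 difference of mam2 was 3.08 in wt and 3.03 in kloopmut, that of mei2 was 2.19 and 1.89, and that of isp5 was 2.94 and 2.62. List medians were 3.40 in wt and 2.68 in kloopmut for M cell genes, and -0.80 and -0.83 for amino acid synthesis.

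**Figure D5:**
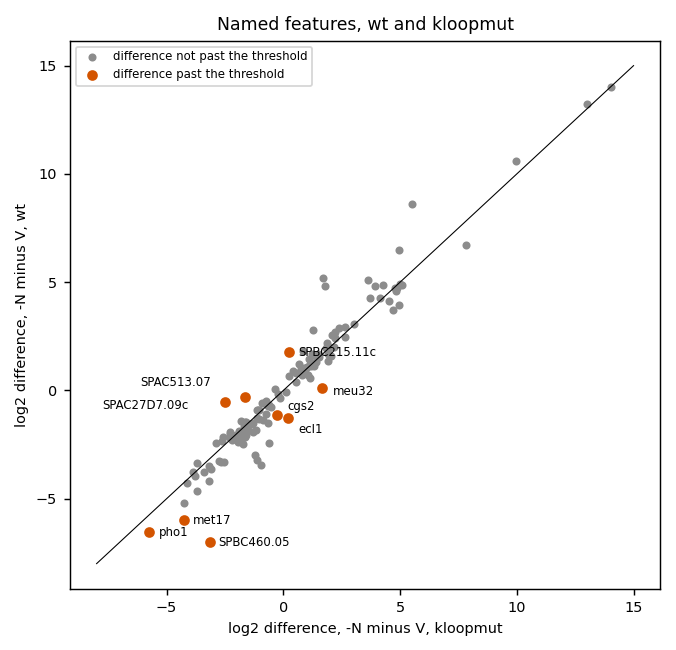
Log2 difference, -N minus V, in wt (vertical axis) against kloopmut (horizontal axis) for 138 named features; orange points passed the test of the difference between strains, gray points did not, and the line marks equal change. The 9 orange features include met17 at -6.00 in wt and -4.25 in kloopmut.

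The change itself differed between strains for 81 of 12019 features (0.674%), of which 32 had the higher and 49 the lower log2 change in wt, and 1989 had an unadjusted p below 0.05. This count was not stable. The edgeR fit of the 8 V and -N libraries alone called 0 features, with 886 at an unadjusted p below 0.05, which ends the calls of the genes named next, and DESeq2 called 463. Without wt V replicate 1 the count was 47, without wt V replicate 2 it was 2142 and without wt -N replicate 1 it was 12. The ecl1 gene, of the same family as ecl2, was at 25.5 and 31.9 RPKM in wt -N and 61.7 and 78.6 RPKM in wt V cells, against 34.8 and 39.1 RPKM in kloopmut -N and 29.3 and 35.4 RPKM in kloopmut V cells (difference in log2 change -1.48, adjusted p 0.000321). All of ecl1 lies under a lncRNA feature on the other strand. For met17 the fall was larger in wt by 1.74 on the log2 scale (adjusted p 0.00044). Its V levels were 253 and 296 RPKM in wt and 99.4 and 95.5 RPKM in kloopmut, and its -N levels were 3.37 and 5.24 RPKM in wt and 5.02 and 5.19 RPKM in kloopmut. SPBC215.11c, an aldo/keto reductase gene, was at 63.7 and 77 RPKM in wt -N and 16.6 and 25.2 RPKM in wt V, against 46.9 and 51.1 RPKM in kloopmut -N and 41.2 and 42.3 RPKM in kloopmut V.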

How the data were processed

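Poly(A)+ RNA of 40 libraries was sequenced. The deposited values are read counts per feature, not normalized. The submitters' processing notes name fastp 0.23.1, STAR 2.6.1d and featureCounts (Subread 2.0.6). The strand setting is not given in the sources used here. Of 12684 features, 12604 were found by identifier in a RefSeq annotation (ASM294v3), 12594 with the same start and end.

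Low features were removed with filterByExpr (12019 kept). The counts of all 40 libraries were fitted with edgeR 4.0.16 in R 4.3.3, with TMM and a mean for each of the 20 groups, and p-values of the quasi-likelihood test, each two-sided, were adjusted with the Benjamini-Hochberg method at a threshold of 0.05. The strain difference was the contrast of both starvation contrasts. RPKM were computed here from whole feature spans. Upstream windows were the 300 bases before each annotated start. Counting intervals are exact (95%) and cover counting error only. Members and lists were chosen with earlier results of these data known. Named features were the 12 largest rises and falls among coding features whose groups do not overlap (mean of at least 10 RPKM), 5 each among non-coding features under 10% overlap, up to 4 members of each list (at least 1 RPKM), the 10 highest in -N, the 6 largest strain differences and a fixed set; other list members were chosen after their values were seen. The fit was tested on simulated data. Alternatives were other scalings, filters, tests (DESeq2 1.42.0, limma 3.58.1), library or feature sets, a replicate block and leaving out each library.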

Additional observations from a re-analysis of the deposited data

Results flagged for a closer look

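For 9 named features the change under starvation differed between wt and kloopmut by the interaction term of the edgeR fit, and the fit of the 8 V and -N libraries alone called none of them. As the log2 change in wt minus that in kloopmut, the values were 1.35 for SPAC513.07, -1.48 for ecl1, -1.74 for met17, 1.52 for SPBC215.11c, -0.857 for cgs2, -3.85 for SPBC460.05, -0.811 for pho1, 1.96 for SPAC27D7.09c and -1.55 for meu32. SPAC513.07, a reductase family gene, was at 75.1 and 67.2 RPKM in wt -N and 84.7 and 89.4 RPKM in wt V, against 41.7 and 40.7 RPKM in kloopmut -N and 132 and 124 RPKM in kloopmut V (adjusted p 3.91e-07). SPBC460.05 was at 54.7 and 36.7 RPKM in wt V and 2.46 and 2.17 RPKM in kloopmut V, and near 0 in -N of both strains. For pho1, V levels were 1940 and 2156 RPKM in wt and 999.7 and 917 RPKM in kloopmut.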

How the results depend on the processing

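The 6680 wt calls were 6371 to 7097 under other scalings, filters and tests, 5436 to 6489 with 1 wt library left out, 3865 in the fit of the 4 libraries, 2897 with a limit of 1, 3290 over protein-coding features and 693 over features under 10% overlap. The 6748 kloopmut calls were 2822, 3401 and 675 with the last 3. The 81 strain differences were 463 with DESeq2, 412 with limma-voom, 0 with the 8 V and -N libraries (886 at an unadjusted p below 0.05), 43 with a limit of 1, 154 over protein-coding features, 6 over features under 10% overlap, and 12 (without wt -N replicate 1) to 2142 (without wt V replicate 2) with 1 library left out. They were 23 and 30 without kloopmut V replicate 1 and 2 and 15 without kloopmut -N replicate 1. With the replicate number as a block, 6961 wt calls and 244 strain differences were made. Deviations of same-numbered libraries correlated at 0.039, and no label says whether equal numbers mark a shared culture, so the numbers were not used to pair libraries. Of the 138 named features, 137 kept direction and call under the block, 132 with total counts, 123 in the fit of the 4 libraries and 128 to 135 with 1 library left out.

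With total counts, medians turned to 0.21 for P cell genes, 0.20 for ribosome biogenesis, 0.10 for S phase, 0.20 for nutrient signalling and 0.26 for the proteasome, and log2 differences to 0.15 for isp6, 0.24 for srw1 and 0.022 for SPAC513.07. Over features under 10% overlap, medians were -0.28 for the spore list, 0.37 for histones, 0.33 for nutrient signalling and 0.40 for the proteasome. With 1 library left out, medians ran from -0.31 to 0.090 for P cell genes, -0.14 to 0.11 for stress, -0.21 to 1.15 for hexose transport and -0.0848 to 0.058 for the proteasome, and log2 differences from -0.76 to 2.04 for SPAC27E2.11c, -0.50 to 0.22 for isp6, -0.26 to 0.061 for srw1, -1.07 to 0.27 for SPAC27D7.09c and -0.12 to 0.28 for meu32. Counts of list members without each V library were added after the data were seen. The cause of these moves was not tested. Pairs of libraries limit each comparison, strands are not separated, and features near 3 counts have no firm fold.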
